A study of Mus musculus with 18 samples.

Results

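The receptors and Smad proteins of the bone morphogenetic protein (BMP) and transforming growth factor beta (TGF-beta) pathways were followed through early T cell development in adult and fetal thymus. The set held every probe set annotated with Tgfb1, Tgfbr1, Tgfbr2, Bmpr1a, Smad1, Smad5, Smad3, Smad4, Smad7 or Bmp2k, which gave 24 of the 22626 probe sets on the array, for 10 genes. Bmpr1a had 5 probe sets, Tgfbr1, Tgfbr2 and Smad4 had 3 each, Smad1, Smad5, Smad3 and Bmp2k had 2 each, and Tgfb1 and Smad7 had 1 each.

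The arrays compared thymocyte progenitors of C57BL/6 mice that had been sorted by flow cytometry from adult females aged 4 to 6 weeks and from fetuses labelled E14.5, without sex for the fetuses; the methods of the study place the fetal thymi on the following day of gestation. All cells were depleted of lineage-positive cells. Early thymic progenitors (ETP) were sorted as CD44+CD25-c-kit+, DN2 cells as CD44+CD25+ and DN3 cells as CD44-CD25+, so that the groups were adult ETP, adult DN2, adult DN3, fetal ETP, fetal DN2 and fetal DN3, with 3 arrays each and 18 in all. RNA came from 80000 cells per sample and was pooled from several sorts per array, more for adult than for fetal arrays. The labels call the arrays biological replicates and the methods call them technical, and p-values therefore measure only the spread between these arrays, which may be technical.

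TGF-beta binds TGFBR2, which phosphorylates TGFBR1, and TGFBR1 then phosphorylates SMAD2 and SMAD3. BMPs use other receptors, among them the type I receptor BMPR1A, which phosphorylates SMAD1 and SMAD5. Both branches share SMAD4, which enters the nucleus with the phosphorylated Smads, and both are restrained by the inhibitory SMAD7. In the thymus these pathways are known for effects on the earliest progenitors, and BMP4 is made by thymic stroma.

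The values are log2 intensities centred per probe set on the median of the 18 arrays. A value of 1 therefore means a 2-fold higher signal than the median array for the same probe set, and levels of different genes or probe sets cannot be set against each other. A difference was called when its adjusted p in limma was under 0.05 and its size at least 1.8-fold. All differences between ages are adult minus fetal, and those between stages are the later minus the earlier stage.

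Arrays that went against their labels or stood apart were looked for first. Xist (1427262_at), which is transcribed from the inactive X chromosome of female cells, read -11.3 and -11.3 in adult DN3 replicates 2 and 3, against 1.59 in adult DN3 replicate 1, although all adult mice were labelled female; Uty (1422247_a_at), from the Y chromosome, read 1.97 and 2.30 in the same pair of arrays and -0.30 in replicate 1. Calls that involve adult DN3 are therefore also given without both arrays. That fit keeps only adult DN3 replicate 1, so that adult DN3 has no spread of its own there. Adult DN3 replicate 3 also kept the sorting marker Cd44 (1423760_at) at -0.86, against -7.97 and -7.84 in replicates 1 and 2. In the same array the myeloid gene Mpo (1415960_at) read 0.10, against -5.68 and -6.14 in replicates 1 and 2. The other Cd44 probe set, 1452483_a_at, did not set replicate 3 apart, at -0.15 against -0.22 and -0.03 in replicates 1 and 2. Embryonic globin Hbb-y (1436717_x_at) read 5.47 to 11.1 in 7 of the 9 fetal arrays and 0.05 and -0.14 in replicate 1 of fetal DN2 and DN3. The 6 T lineage markers were ordered as the stage labels imply, with the mean of the list at 1.46 to 2.35 in adult DN3 and -7.13 to -5.29 in adult ETP, and at 1.90 to 2.33 in fetal DN3 and -3.62 to -2.10 in fetal ETP.

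Of the 24 probe sets, 5 were flat, with a span under 0.5 over the 18 arrays (20.8%, against 36.8% of all probe sets), and 8 were regulated over the 6 groups, with an adjusted p under 0.05 in limma's F test and group means at least 1.8-fold apart (33.3%, against 16.8% of all probe sets). The regulated probe sets belonged to Tgfbr1, Tgfbr2, Bmpr1a, Smad1, Smad3, Smad4, Smad7 and Bmp2k, 1 for each gene, and the same 8 were called in at least 1 of the 9 comparisons of age or stage (33.3%, against 17.7% of all probe sets). Smad3 counted by a narrow margin (adjusted p of the F test 0.0457), and was lost with the replicate block (0.0508) and when 1 array was left out (0.051 to 0.113), except adult DN2 replicate 2 or fetal DN2 replicate 1. No probe set of the ligand gene Tgfb1 or of Smad5 was called. Of the 8, the Bmpr1a and Bmp2k probe sets were lower in adult than in fetal cells at every stage. The Smad1 probe set was higher in adult cells at every stage, with calls at DN2 and DN3 that were lost without some single arrays. The Smad4 probe set was higher in adult ETP, and that of Tgfbr1 increased with stage at both ages. Those of Tgfbr2 and Smad7 were high in ETP. With all arrays in the fit, no other probe set of these genes was called.

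**Figure D1:**
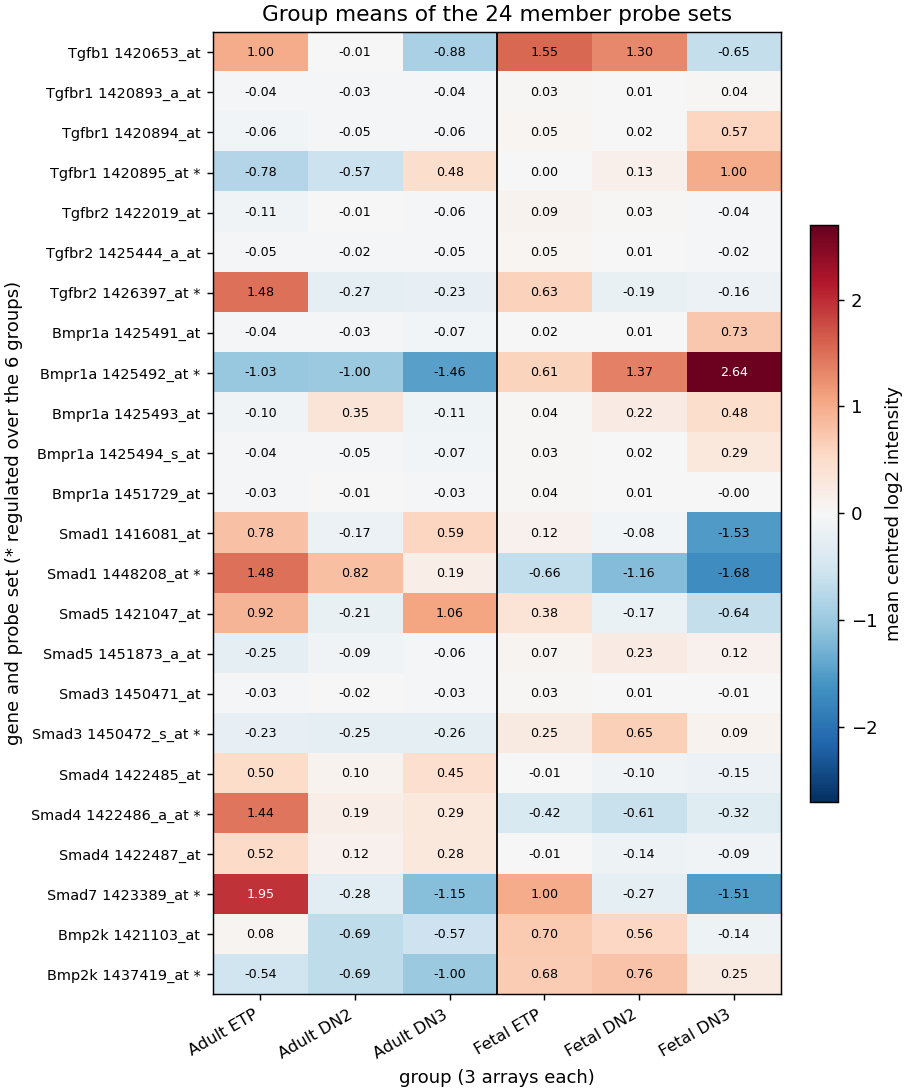
Mean centred log2 intensity of the 24 probe sets (rows, by role) in the 6 groups (columns, adult groups left and fetal groups right, 3 arrays each). Asterisks mark the 8 probe sets regulated over the 6 groups. The largest range of group means was that of Bmpr1a 1425492_at, with -1.46 in adult DN3 and 2.64 in fetal DN3.

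RefSeq promoters on GRCm38.p6 were held for 8 of the 10 genes, and 4 of them are shown because they belong to the pairs that moved in opposite directions, Bmpr1a and Smad1 with age and Tgfbr1 and Tgfbr2 with stage. Each runs over 300 bases, 250 before and 50 after the start site, in the direction of transcription. Bmpr1a lies on the minus strand at chr14:34502497-34502796, Smad1 on the minus strand at chr8:79399379-79399678, Tgfbr1 on the plus strand at chr4:47352972-47353271 (the upstream of 2 listed starts) and Tgfbr2 on the minus strand at chr9:116175314-116175613. Capitals mark AGAC, the core of the Smad binding element, and GGCGCC, a GC-rich Smad element, both read on the printed strand.
Bmpr1a promoter: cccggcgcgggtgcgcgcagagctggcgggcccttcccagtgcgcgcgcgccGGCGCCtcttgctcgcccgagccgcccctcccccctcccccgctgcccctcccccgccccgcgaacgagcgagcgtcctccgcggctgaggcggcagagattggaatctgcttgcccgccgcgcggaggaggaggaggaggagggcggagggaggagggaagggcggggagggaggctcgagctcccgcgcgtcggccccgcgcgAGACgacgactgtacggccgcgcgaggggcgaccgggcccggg
Smad1 promoter: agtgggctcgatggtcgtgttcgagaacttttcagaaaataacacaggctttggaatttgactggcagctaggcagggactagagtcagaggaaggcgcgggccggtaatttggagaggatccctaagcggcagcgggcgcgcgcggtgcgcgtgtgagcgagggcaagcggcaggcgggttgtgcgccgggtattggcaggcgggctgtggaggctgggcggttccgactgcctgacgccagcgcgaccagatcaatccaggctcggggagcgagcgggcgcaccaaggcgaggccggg
Tgfbr1 promoter: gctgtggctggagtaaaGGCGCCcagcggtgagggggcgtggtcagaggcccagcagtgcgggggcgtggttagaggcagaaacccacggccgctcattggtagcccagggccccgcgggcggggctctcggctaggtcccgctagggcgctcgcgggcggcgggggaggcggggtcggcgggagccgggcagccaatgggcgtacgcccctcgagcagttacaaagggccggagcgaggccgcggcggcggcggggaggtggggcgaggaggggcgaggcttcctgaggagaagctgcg
Tgfbr2 promoter: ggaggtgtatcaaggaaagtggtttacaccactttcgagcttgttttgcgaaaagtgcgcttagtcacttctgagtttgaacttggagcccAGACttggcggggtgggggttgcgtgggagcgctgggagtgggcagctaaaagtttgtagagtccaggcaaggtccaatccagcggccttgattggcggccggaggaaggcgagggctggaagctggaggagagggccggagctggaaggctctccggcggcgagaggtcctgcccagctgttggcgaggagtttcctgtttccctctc
Searched on either strand, AGAC occurs in 88% of 32851 mouse promoters of this length, GGCGCC in 11.9% and CAGGTG, an E-box bound by E proteins, in 20.2%. These shares do not take GC content into account. Its median over all these promoters is 52.7%, against 79.3% for Bmpr1a, 65.0% for Smad1, 74.7% for Tgfbr1 and 59.0% for Tgfbr2. Counted from the start site, Bmpr1a holds GGCGCC at position -198 and AGAC at position 7, and Tgfbr1 holds GGCGCC at position -233. Tgfbr2 holds AGAC at position -159, and Smad1 has no match to any of these letters in this window. These matches describe the sequence and were not tied to the array values.

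Bmpr1a, the type I BMP receptor, gave the widest differences of the set. Probe set 1425492_at read -0.93, -1.22 and -0.94 in adult ETP, -1.37, -1.45 and -0.17 in adult DN2 and -1.46, -0.89 and -2.03 in adult DN3. The fetal arrays read 0.17, 0.74 and 0.90 in ETP, 1.84, 1.22 and 1.04 in DN2 and 2.77, 2.66 and 2.50 in DN3. All 9 adult arrays lay below all 9 fetal arrays, and the fetal arrays were ordered ETP, DN2, DN3 without overlap while those of the adult groups overlapped between stages. The adult-minus-fetal difference was -1.64 ± 0.35 at ETP (SE; adjusted p = 0.00921), -2.36 ± 0.35 at DN2 (adjusted p = 0.00158) and -4.10 ± 0.35 at DN3 (adjusted p = 7.96e-06), or 3.11-, 5.15- and 17.2-fold lower in adult cells. Without adult DN3 replicates 2 and 3 the DN3 difference was -4.11 (adjusted p = 0.000162).

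Among fetal cells Bmpr1a 1425492_at was 4.10-fold higher in DN3 than in ETP (2.03 ± 0.35 SE, adjusted p = 0.00238), with 3 DN3 arrays at 2.50 to 2.77 and 3 ETP arrays at 0.17 to 0.90. Fetal DN3 replicate 1, in which Hbb-y was low, read 2.77. Adult DN3 and adult ETP differed by -0.43 ± 0.35 (adjusted p = 0.615). The age difference itself changed from ETP to DN3 by -2.47 ± 0.50 (adjusted p = 0.0179), and this call was lost without fetal DN3 replicate 1 (adjusted p = 0.0501) or fetal ETP replicate 1 (0.0525).

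The other 4 Bmpr1a probe sets were narrower, and none was called. Probe set 1425491_at was near 0 in 15 arrays, between -0.11 and 0.03, and read 0.91, 0.54 and 0.75 in fetal DN3. At DN3 its adult-minus-fetal difference of -0.80 ± 0.07 had an adjusted p of 5.65e-06 and stayed just below 1.8-fold. Probe set 1425494_s_at likewise was highest in fetal DN3, at 0.20, 0.45 and 0.23, with a difference of -0.36 ± 0.06 (adjusted p = 0.00195). Probe set 1425493_at read 0.35, 0.18 and 0.90 in fetal DN3 but also 1.09 in adult DN2 replicate 1, and 1451729_at was flat, with a span of 0.12. Thus 3 of the 4 were highest on average in the same group as 1425492_at, fetal DN3, with far smaller ranges; the flat 1451729_at was not one of them.

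**Figure D2:**
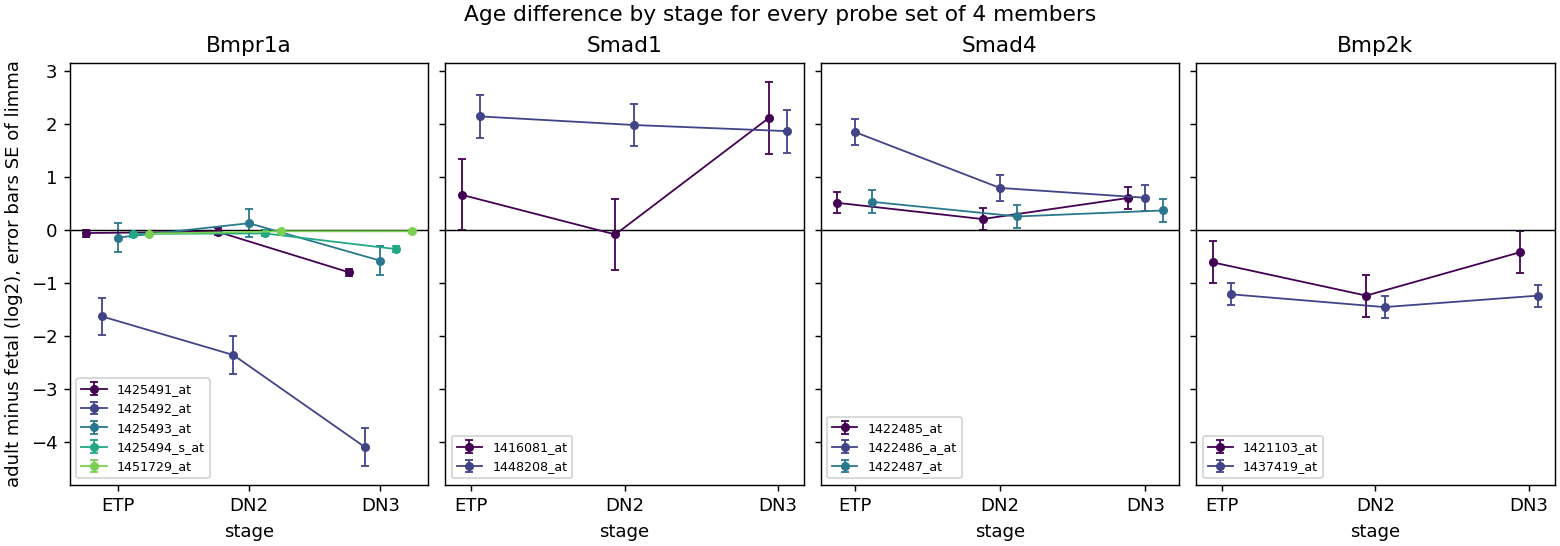
Adult-minus-fetal difference in log2 units (vertical axis) at ETP, DN2 and DN3 (horizontal axis) for each probe set of Bmpr1a, Smad1, Smad4 and Bmp2k, with the standard error of limma as bars. Bmpr1a 1425492_at lies at -1.64 at ETP, -2.36 at DN2 and -4.10 at DN3, while both Bmp2k probe sets lie below 0 at each stage.

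Smad1, which carries the BMP signal to the nucleus, went the other way. Probe set 1448208_at read 1.13, 1.98 and 1.34 in adult ETP, 0.10, 0.90 and 1.46 in adult DN2 and -0.10, 0.52 and 0.14 in adult DN3, whereas fetal ETP read -0.90, -1.21 and 0.12, fetal DN2 -1.29, -1.55 and -0.64 and fetal DN3 -1.81, -1.94 and -1.29. At each stage the adult arrays lay above the fetal arrays, and the mean was lower at each later stage in both ages. Adult cells were 4.42-fold higher at ETP (2.15 ± 0.41 SE, adjusted p = 0.00414), 3.95-fold higher at DN2 (1.98 ± 0.41, adjusted p = 0.0139) and 3.65-fold higher at DN3 (1.87 ± 0.41, adjusted p = 0.0217). The DN2 call was lost without adult DN2 replicate 3 or fetal DN2 replicate 2 (adjusted p = 0.0577 and 0.076). At DN3 the call was lost when replicate 2 or 3 of the adult arrays (adjusted p = 0.104 and 0.0548) or replicate 1 or 2 of the fetal arrays (0.0901 and 0.0972) was left out. With adult replicates 2 and 3 both left out, the DN3 difference was 1.58 (adjusted p = 0.225).

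Between DN3 and ETP, Smad1 1448208_at differed by -1.30 ± 0.41 in adult cells (adjusted p = 0.053) and by -1.02 ± 0.41 in fetal cells (adjusted p = 0.221). With the replicate number as a block the adult difference was called (adjusted p = 0.0232). The second probe set, 1416081_at, spread more widely, from -0.88 to 1.71 in adult DN3, against -2.28 to -0.69 in fetal DN3, and its DN3 difference of 2.12 ± 0.67 was not called (adjusted p = 0.158). It was called at 2.85 without adult DN3 replicate 1 (adjusted p = 0.0312). At DN2 both ages overlapped for 1416081_at (-0.09 ± 0.67, adjusted p = 0.946), unlike 1448208_at.

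Smad5, the partner of Smad1 in the BMP branch, was not called with either probe set. Probe set 1421047_at ranged from -0.02 to 1.81 in adult ETP and from -1.67 to 2.75 in fetal ETP, so that the 3 fetal ETP arrays spanned the whole range of the 18. At DN3 it read -0.01, 1.65 and 1.56 in adult cells and -0.56, -0.42 and -0.94 in fetal cells, which did not overlap, and the difference was 1.7 ± 0.89 (adjusted p = 0.607). Probe set 1451873_a_at was tighter, with adult-minus-fetal differences of -0.32 ± 0.11 at ETP (adjusted p = 0.0828), -0.32 ± 0.11 at DN2 (adjusted p = 0.167) and -0.17 ± 0.11 at DN3 (adjusted p = 0.778).

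Bmp2k, a kinase first described as induced by BMP2 in bone cells and not a Smad kinase, was lower in adult cells at every stage. Probe set 1437419_at read -0.17, -1.0 and -0.45 in adult ETP, -1.16, -0.64 and -0.29 in adult DN2 and -1.15, -1.07 and -0.77 in adult DN3, against 0.70, 0.71 and 0.63 in fetal ETP, 0.84, 0.70 and 0.76 in fetal DN2 and 0.24, 0.33 and 0.17 in fetal DN3. No adult array reached a fetal array. The differences were -1.22 at ETP (adjusted p = 0.00224), -1.46 at DN2 (adjusted p = 0.00117) and -1.24 at DN3 (adjusted p = 0.00358), each ± 0.21 SE, or 2.32-, 2.75- and 2.37-fold lower in adult cells, and the DN3 difference was -1.40 without adult DN3 replicates 2 and 3 (adjusted p = 0.02). The second probe set, 1421103_at, pointed the same way at -0.61, -1.24 and -0.42 but was not called (adjusted p = 0.233, 0.117 and 0.952). Without adult DN3 replicates 2 and 3 its DN3 difference was -1.51, which rests on adult DN3 replicate 1 alone.

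Smad4, the Smad shared by both branches, was high in adult ETP. Probe set 1422486_a_at read 1.67, 1.25 and 1.40 in adult ETP, 0.05, 0.56 and -0.05 in adult DN2 and 0.24, 0.29 and 0.34 in adult DN3, against -0.46, -0.86 and 0.07 in fetal ETP, -0.43, -1.12 and -0.26 in fetal DN2 and -0.28, -0.33 and -0.34 in fetal DN3. Adult ETP stood above every other group. The adult-minus-fetal difference was 1.85 ± 0.24 at ETP (SE; adjusted p = 0.000346), 0.79 ± 0.24 at DN2 (adjusted p = 0.103) and 0.61 ± 0.24 at DN3 (adjusted p = 0.349), so that only the ETP difference was called. Its change from ETP to DN3, -1.24 ± 0.35, was not called (adjusted p = 0.0852; it was without fetal ETP replicate 3, at 0.0302). The other Smad4 probe sets, 1422485_at and 1422487_at, were also highest in adult ETP, with means of 0.50 and 0.52 against -0.01 and -0.01 in fetal ETP, and were not called (adjusted p = 0.115 and 0.125).

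In adult cells Smad4 1422486_a_at was 2.38-fold lower in DN2 than in ETP (-1.25 ± 0.24, adjusted p = 0.00643) and 2.21-fold lower in DN3 than in ETP (-1.15 ± 0.24, adjusted p = 0.0066). With adult DN3 reduced to replicate 1 the DN3 difference was -1.20 (adjusted p = 0.0785). Fetal stages differed by -0.19 ± 0.24 between DN2 and ETP (adjusted p = 0.951) and 0.10 ± 0.24 between DN3 and ETP (adjusted p = 0.835).

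In all, 4 of the 24 probe sets were called between adult and fetal ETP, 2 higher and 2 lower in adult cells (16.7%, against 8.49% of all probe sets, 3.45% higher and 5.04% lower). At DN2 the count was also 4, 1 higher and 3 lower (16.7%, against 3.44%, 1.57% higher and 1.87% lower), and at DN3 it was 3, 1 higher and 2 lower (12.5%, against 2.77%, 1.16% higher and 1.6% lower). The median difference of the 24 probe sets was -0.07 at ETP, -0.04 at DN2 and -0.07 at DN3, beside -0.07, -0.03 and -0.02 over all probe sets. The fourth call at DN2 was Smad3, a signal carrier of the TGF-beta branch. Its probe set 1450472_s_at read -0.30, 0.02 and -0.47 in adult DN2 and 0.19, 0.61 and 1.16 in fetal DN2. The gap between the nearest adult and fetal arrays was only 0.17, and the difference of -0.90 ± 0.23 (adjusted p = 0.0441) was lost without 4 of the 6 DN2 arrays in turn (adjusted p = 0.103 to 0.152) and when each array was centred on its own median (0.0566). At ETP and DN3 it was not called, and the second Smad3 probe set, 1450471_at, was flat.

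Of the TGF-beta receptors, Tgfbr1 increased with stage at both ages. Probe set 1420895_at read -0.75, -0.62 and -0.97 in adult ETP, -0.48, -0.87 and -0.38 in adult DN2 and 0.63, 0.41 and 0.40 in adult DN3. The fetal arrays gave 0.16, 0.02 and -0.17 in ETP, 0.67, -0.02 and -0.25 in DN2 and 1.20, 0.93 and 0.87 in DN3. The 3 DN3 arrays lay above the ETP and DN2 arrays of the same age, while ETP and DN2 overlapped. DN3 was 2.40-fold higher than ETP in adult cells (1.26 ± 0.20 SE, adjusted p = 0.000954) and 2.00-fold higher in fetal cells (1.00 ± 0.20, adjusted p = 0.00776); without adult DN3 replicates 2 and 3 the adult value was 1.41 (adjusted p = 0.0124).

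From DN2 to DN3 the Tgfbr1 difference was 1.05 ± 0.20 in adult cells (adjusted p = 0.0279) and 0.87 ± 0.20 in fetal cells (adjusted p = 0.0381). The adult call was lost without adult DN2 replicate 2 or adult DN3 replicate 1 or 2 (adjusted p = 0.0929, 0.0971 and 0.0973) and, at 1.20, without both adult DN3 replicates 2 and 3 (0.0521). The fetal call was lost without any of 5 of the 6 arrays, all but fetal DN2 replicate 1 (adjusted p = 0.0749 to 0.186). Adult minus fetal was -0.78 ± 0.20 at ETP, which passed the test (adjusted p = 0.0262) but not 1.8-fold. Of the other probe sets, 1420893_a_at was flat, and 1420894_at was near 0 except in fetal DN3, where it read 1.33, -0.02 and 0.41.

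Tgfbr2, which binds the ligand, was highest in adult ETP and lower in adult DN2 and DN3. Probe set 1426397_at read 1.42, 1.27 and 1.75 in adult ETP, -0.51, 0.01 and -0.30 in adult DN2 and -0.76, -0.23 and 0.31 in adult DN3, against 0.78, 0.47 and 0.64 in fetal ETP, 0.08, -0.39 and -0.28 in fetal DN2 and -0.01, -0.17 and -0.31 in fetal DN3. ETP arrays lay above the DN2 and DN3 arrays of their own age. In adult cells DN2 was 3.35-fold lower than ETP (-1.75 ± 0.23 SE, adjusted p = 0.000381) and DN3 was 3.27-fold lower than ETP (-1.71 ± 0.23, adjusted p = 0.000252), or -2.24 without adult DN3 replicates 2 and 3 (adjusted p = 7.64e-05).

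The same steps in fetal cells gave -0.83 ± 0.23 for DN2 minus ETP (adjusted p = 0.199) and -0.79 ± 0.23 for DN3 minus ETP (adjusted p = 0.0671) and were not called. The adult and fetal steps were not shown to differ. The age difference changed by -0.92 ± 0.33 from ETP to DN2 (adjusted p = 0.428) and by -0.91 ± 0.33 from ETP to DN3 (adjusted p = 0.224). The second change was called without adult DN3 replicate 3 (-1.18, adjusted p = 0.0498). Without replicates 2 and 3 it was -1.45, which rests on adult DN3 replicate 1 alone. Adult and fetal ETP differed by 0.85 ± 0.23 (adjusted p = 0.0336), just short of 1.8-fold, and at 0.91 this was called with each array centred on its own median. Both other Tgfbr2 probe sets, 1422019_at and 1425444_a_at, were flat.

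Smad7, which binds activated type I receptors and blocks signalling, was also highest in adult ETP. Its 1 probe set, 1423389_at, read 2.75, 1.23 and 1.86 in adult ETP, -0.63, 0.49 and -0.72 in adult DN2 and -2.84, -0.72 and 0.11 in adult DN3, against 1.36, 0.87 and 0.78 in fetal ETP, 0.24, -0.11 and -0.93 in fetal DN2 and -1.41, -1.37 and -1.74 in fetal DN3. The adult DN3 arrays were widely spread, whereas those of fetal DN3 lay close together. The highest adult DN3 array, at 0.11, was replicate 3, which also kept Cd44 and Mpo high. Whether these are linked was not tested. Adult DN3 was 8.55-fold lower than adult ETP (-3.10 ± 0.63 SE, adjusted p = 0.00491), and the value was -4.79 without adult DN3 replicates 2 and 3 (adjusted p = 0.00029). The adult step from DN2 to DN3 was -0.87 ± 0.63 with all arrays (adjusted p = 0.758). Without the same arrays it was -2.56, which rests on adult DN3 replicate 1 alone.

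The fetal difference between DN3 and ETP was -2.51 ± 0.63 (adjusted p = 0.0288). It was lost without any 1 of the 6 arrays (adjusted p = 0.065 to 0.119), although the arrays of the 2 stages stood 2.15 apart, and with the replicate block (0.0501). The adult step from ETP to DN2, -2.23 ± 0.63 (adjusted p = 0.0491), was lost with the block (0.0705) and without adult DN2 replicate 1 or 3 or adult ETP replicate 1 or 3 (0.106 to 0.153). Between ages Smad7 was not called at ETP (0.94 ± 0.63, adjusted p = 0.248), DN2 (-0.02 ± 0.63, adjusted p = 0.988) or DN3 (0.36 ± 0.63, adjusted p = 0.952).

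Tgfb1, the ligand gene, had the widest span of the 24 probe sets, 6.76, and no called difference (adjusted p of the F test 0.528). Probe set 1420653_at read 4.87, -1.89 and 0.0018 in adult ETP, 0.64, 1.08 and -1.76 in adult DN2 and -1.36, -1.27 and -0.0018 in adult DN3, against 2.55, 2.30 and -0.20 in fetal ETP, 1.81, 2.53 and -0.45 in fetal DN2 and -0.43, 0.04 and -1.57 in fetal DN3. Every age comparison overlapped, and replicate 3 was the lowest array at each fetal stage. The SE of each age or stage difference was 1.45, so that differences of the size seen in Smad1 were not detectable for this probe set. Of the 4 megakaryocyte and platelet markers measured, platelets being a rich source of TGF-beta 1, Pf4, Gp9 and Ppbp were flat over the 18 arrays. The fourth, the integrin gene Itga2b, which early blood progenitors also express, was called lower in adult than in fetal ETP (1417758_at at -0.20 to 0.00 in adult ETP and 2.03 to 2.38 in fetal ETP) and lower in fetal DN3 than in fetal DN2 and fetal ETP. Its part in the Tgfb1 values was not tested.

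**Figure D3:**
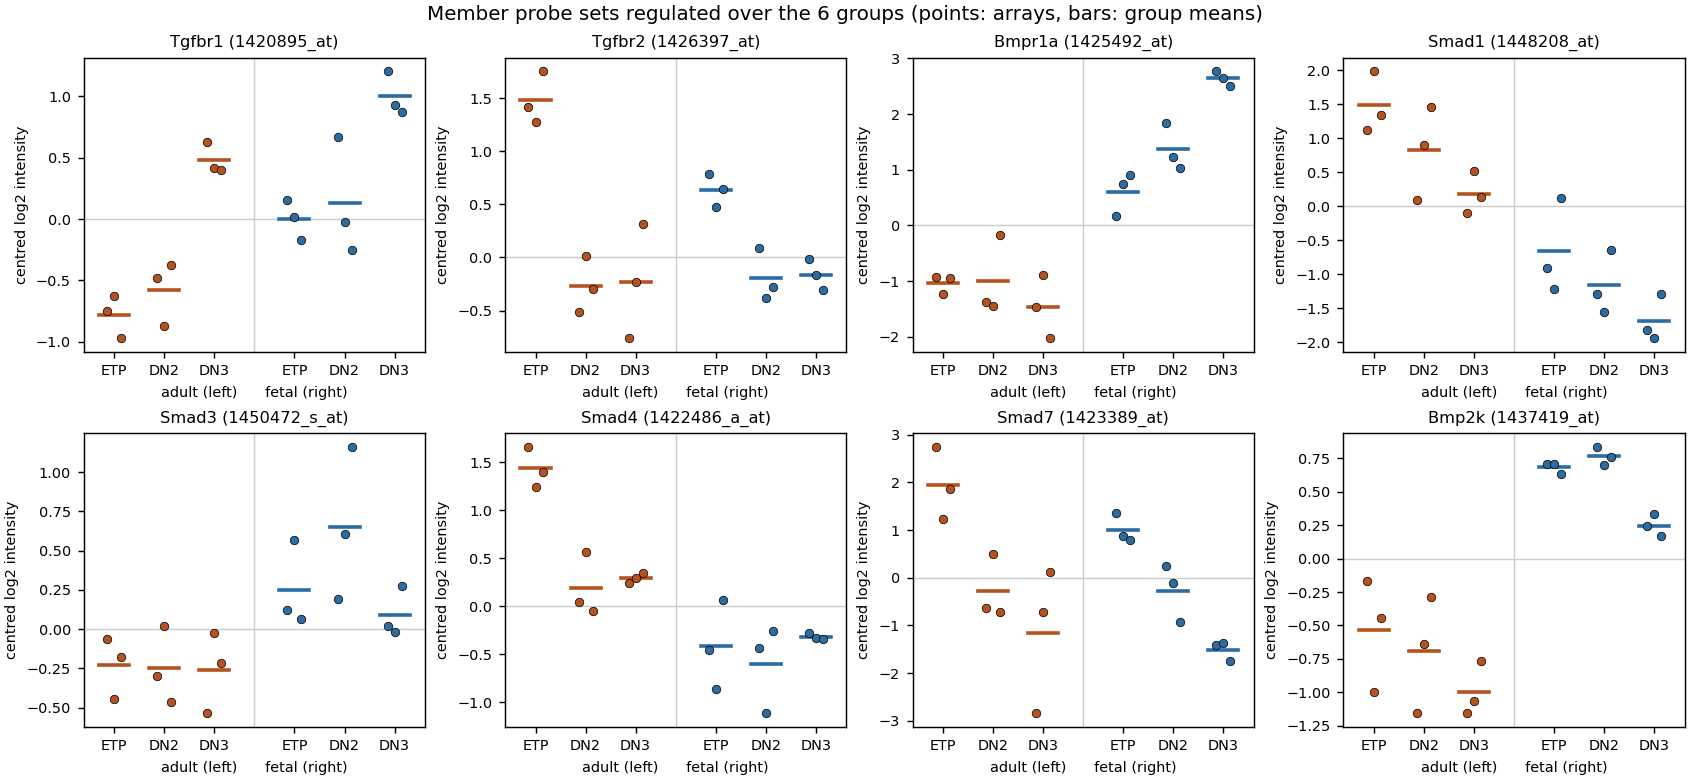
Centred log2 intensity (vertical axes, own scale per panel) of each array (points) and group means (bars) for the 8 regulated probe sets at ETP, DN2 and DN3 (horizontal axes), adult left and fetal right. Adult and fetal points do not overlap at any stage for Bmpr1a, Smad1, Bmp2k, Tgfbr1, Smad4 and Smad3. For Smad3 at DN3 the highest adult point is -0.025 and the lowest fetal point -0.019. The share of all probe sets without such overlap was not counted. The 3 adult ETP points of Smad4 lie at 1.25 to 1.67.

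By stage, 3 of the 24 probe sets were called lower in adult DN2 than in adult ETP (Tgfbr2, Smad4 and Smad7; 12.5%, against 6.07% of all probe sets called and 3.11% called lower), and 4 were called between adult DN3 and adult ETP, 1 higher and 3 lower (16.7%, against 10.8%, 5.56% higher and 5.2% lower). The adult step from DN2 to DN3 gave 1 call, Tgfbr1 (4.17%, against 0.928%, of which 0.636% higher). In fetal cells limma gave 0 calls for DN2 against ETP (0.972% of all probe sets), with 2 of the 24 at an unadjusted p under 0.05 and 1 call, Tgfbr2, with array weights. The fetal step from DN2 to DN3 gave 1 call, Tgfbr1, higher in DN3 (4.17%, against 2.47%, of which 1.63% higher). Between fetal DN3 and fetal ETP there were 3 calls, 2 higher and 1 lower (12.5%, against 5.45%, 2.69% higher and 2.76% lower). For the change of the age difference between stages, 1 probe set, of Bmpr1a, was called from ETP to DN3 (4.17%, against 2.49%, of which 1.39% in the same direction). In limma 0 were called from ETP to DN2 (0.796% of all probe sets; 2 of the 24 at an unadjusted p under 0.05) and 0 from DN2 to DN3 (0.548%; 4 of the 24), where array weights gave 1 call.

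Markers of other blood lineages moved with the groups, those of myeloid and dendritic cells with adult ETP. The mean of 8 myeloid genes ran from 3.83 to 4.56 in adult ETP and from 1.41 to 1.66 in fetal ETP, and that of 6 dendritic genes from 4.55 to 5.14 and from 1.11 to 1.24 in the same groups. Between adult and fetal ETP, 5 of the 8 myeloid genes (Csf1r, Ctsg, Elane, Lyz2 and Mpeg1) and 4 of the 6 dendritic genes were higher in adult cells. From adult ETP to adult DN2, 4 of the 8 and 5 of the 6 were lower; the defining markers Itgam and Cd14 were flat throughout. The values stand beside the adult ETP results for Tgfbr2, Smad4, Smad7 and Smad1, and their part in these was not tested. In bulk samples fewer cells of a type and less RNA per cell cannot be told apart. Other markers were higher in fetal ETP. The mean of 4 natural killer genes ran from -1.37 to -0.32 in adult ETP and from 1.40 to 1.96 in fetal ETP, and Gzma was called lower in adult than in fetal cells at ETP and DN2, while Ncr1 and Klrk1 were flat. The mean of 6 erythroid genes was -0.07 to -0.0016 in adult ETP and 0.92 to 2.53 in fetal ETP, and -0.11 to -0.05 in adult DN3 and 0.04 to 2.84 in fetal DN3, with 0 of the 6 called between ages. These values stand beside the lower adult levels of Bmpr1a and Bmp2k, and their part in them was not tested.

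Of the stromal lists, 6 of 7 mesenchymal genes (Col1a1, Col1a2, Col3a1, Pdgfra, Dcn and Lum), 4 of 5 endothelial genes (Cdh5, Kdr, Tek and Emcn) and 2 of 5 thymic epithelial genes (Foxn1 and Krt8) were flat over the 18 arrays. Pdgfrb, of the mesenchymal list, was called lower in adult DN2 and adult DN3 than in adult ETP. Epcam, of the epithelial list, was called lower in adult than in fetal ETP, higher in DN2 and DN3 than in ETP at both ages, and higher in fetal DN3 than in fetal DN2. The mean of the 5 epithelial genes was 0.27 to 1.15 in adult DN3 and -1.17 to -0.98 in adult ETP, and 0.82 to 1.23 in fetal DN3 and -0.89 to -0.41 in fetal ETP. These values stand beside the stage differences of Tgfbr1, Tgfbr2 and Smad7 and the fetal one of Bmpr1a, and their part in these was not tested.

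For each regulated probe set the 3 genes most like it over the 18 arrays were listed by Pearson correlation, which reflects the shared groups and carries no test. Nearest to Bmpr1a 1425492_at were Dsp (r = 0.96) and Dsg2 (0.959), both desmosome genes, and the imprinted growth factor gene Igf2 (0.94). Nearest to Smad1 1448208_at were Pard6g (0.975), the interferon-induced Rsad2 (0.969) and Emp1 (0.954). For Bmp2k 1437419_at they were Fscn1 (0.945), Mt1 (0.944) and Zcchc3 (0.942). Tgfbr1 1420895_at was most like Mtf2 (0.943), Sec14l1 (0.934) and Papss2 (0.918), and Tgfbr2 1426397_at was most like Ubl3 (0.952), Abca3 (0.945) and St3gal2 (0.938). Smad7 1423389_at was most like Elk3 (0.945), Mafg (0.945) and Scpep1 (0.94), Smad4 1422486_a_at like Mylip (0.915), Cbfa2t3 (0.913) and Nfkbia (0.913), and Smad3 1450472_s_at like Noc4l (0.889), Bag2 (0.88) and Rab27b (0.878).

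Other genes of the pathways were taken from lists of 99 genes, of which 87 were measured with 154 probe sets and 23 had a call in at least 1 age or stage comparison. Between adult and fetal ETP, 7 genes were called higher and 6 lower in adult cells (12.3% of the 154 probe sets, against 8.49% of all), at DN2 1 and 1 (1.3%, against 3.44%) and at DN3 2 and 2 (3.9%, against 2.77%). From adult ETP to adult DN2, 2 genes were called higher and 12 lower in DN2 (11%, against 6.07%), and from adult ETP to adult DN3 6 higher and 11 lower in DN3 (14.9%, against 10.8%; Ppm1a is counted in both directions, since its probe sets disagreed). From fetal ETP to fetal DN3, 3 genes were higher and 3 lower in DN3 (3.9%, against 5.45%). Of the 84 called differences, 25 were lost when some single array was left out, and 2 with the replicate block (Ltbp3 1418049_at between adult and fetal ETP and Eng 1417271_a_at between adult DN3 and adult ETP).

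Of the 23 measured genes in the ligand list, only Bmp1 was called, and it encodes a protease that processes procollagen rather than a BMP ligand. With 1426238_at, Bmp1 was 0.93 ± 0.08 higher in adult than in fetal ETP (adjusted p = 4.5e-06). Its other probe sets were not called. The means of 1427457_a_at went the other way, with -0.15 in adult ETP and 0.28 in fetal ETP, and 1427458_at was near 0. Among 12 other receptors and co-receptors, Eng, the TGF-beta co-receptor endoglin, was higher in adult than in fetal ETP by 3.96 ± 0.31 with 1432176_a_at (adjusted p = 3.77e-06), with arrays at 3.36 to 5.08 in adult ETP and 0.01 to 0.17 in fetal ETP. The BMP type I receptor gene Acvr1 gave -1.89 ± 0.42 between adult DN3 and adult ETP (adjusted p = 0.00883). The activin receptor gene Acvr1b was lower in DN3 than in ETP at both ages, with -1.23 ± 0.28 in adult cells (adjusted p = 0.0106) and -1.33 ± 0.28 in fetal cells (adjusted p = 0.0103). Acvr2a differed by -0.95 ± 0.28 between adult DN3 and ETP (adjusted p = 0.0406), a call lost without adult ETP replicate 3 or any 1 adult DN3 array, and at -1.03 without adult DN3 replicates 2 and 3 (0.212). Without the same pair of arrays the adult value was -1.38 for Acvr1b (adjusted p = 0.0776, no longer called) and -2.32 for Acvr1 (0.0351).

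Smad6, the inhibitory Smad that acts mainly on BMP receptors, differed from Smad7. It read 0.05 to 1.34 in adult ETP and 1.66 to 2.81 in fetal ETP, and was near 0 in the 12 arrays of DN2 and DN3. The adult-minus-fetal difference at ETP was -1.81 ± 0.30 (adjusted p = 0.00165), and fetal DN3 minus fetal ETP was -2.37 ± 0.30 (adjusted p = 0.000171). Neither Smad2 nor Smad9 was called.

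Ltbp3, which binds latent TGF-beta, was the only called gene of 13 latency proteins and antagonists. With 1438312_s_at it read 5.75 to 6.01 in adult ETP, 2.26 to 4.01 in adult DN2 and -0.13 to 1.79 in adult DN3, and -0.51 to 0.04 in the 9 fetal arrays. The adult-minus-fetal difference was 5.98 ± 0.46 at ETP (adjusted p = 2.75e-06) and 3.45 ± 0.46 at DN2 (adjusted p = 0.000645).

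Of the Smad regulators and cofactors, Pmepa1, a TGF-beta induced gene whose product binds SMAD2 and SMAD3 and restrains the pathway, increased most. With 1422706_at it read 1.84 to 3.06 in adult DN3 and -2.73 to -2.27 in adult ETP, and 3.47 to 3.68 in fetal DN3 and -2.36 to -2.32 in fetal ETP. DN3 minus ETP was 5.11 ± 0.53 in adult cells (adjusted p = 2.49e-05) and 5.92 ± 0.53 in fetal cells (adjusted p = 8.47e-06). Without adult DN3 replicates 2 and 3 the adult value for Pmepa1 was 5.58. Its other probe sets, 1422705_at and 1452295_at, were not called. Means in adult DN3 and adult ETP were 1.62 and -0.20 for 1422705_at and -0.02 and -0.23 for 1452295_at. Nedd4l, a ubiquitin ligase for Smads, was higher in fetal DN3 than in fetal ETP by 1.54 ± 0.26 (adjusted p = 0.00213). Map3k7, the TGF-beta activated kinase TAK1, was lower in adult than in fetal ETP (-2.79 ± 0.56 with 1425795_a_at, adjusted p = 0.00622). Its other probe sets were not called between ages at ETP. Means in adult and fetal ETP were -0.82 and -0.05 for 1419988_at, -0.44 and 0.01 for 1426627_at and -0.04 and 0.04 for 1449693_at. Those of 1455441_at went the other way, with 0.41 and 0.05. Crebbp, a Smad coactivator, was higher in adult than in fetal ETP by 1.93 ± 0.39 (adjusted p = 0.00658). Fkbp1a, whose product holds the type I receptor inactive, was lower in adult than in fetal ETP with 1416036_at (-1.66 ± 0.41, adjusted p = 0.0207). Its other probe sets were not called, and 1438958_x_at had means of 0.16 in adult ETP and 0.09 in fetal ETP. Tob2 was higher in adult ETP by 1.55 ± 0.42 with 1448667_x_at (adjusted p = 0.0305). The Fkbp1a and Tob2 calls were lost when any of several single ETP arrays was left out. Adult DN2 minus adult ETP was -2.04 for Tob1 (adjusted p = 0.00997), -1.54 for Ppm1a with 1425537_at (0.0053), -1.51 for Tgif2 (0.000173) and -0.90 for Zfyve16 (0.0362, lost without any of 5 of the 6 arrays).

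Genes often used as targets of BMP or TGF-beta split by direction. Id3 was higher in adult DN3 than in fetal DN3 by 5.07 ± 0.30 (adjusted p = 1.51e-07), with arrays at 4.99 to 6.24 in adult DN3 and 0.01 to 0.97 in fetal DN3. Itgae, the integrin chain CD103, was lower in adult than in fetal DN3 (-4.77 ± 0.40, adjusted p = 6.27e-06), with arrays at -0.04 to 1.13 in adult DN3 and 5.18 to 5.72 in fetal DN3. Id2 was lower in adult cells with 1435176_a_at, with differences of -1.84 at ETP, -2.64 at DN2 and -2.56 at DN3 (adjusted p = 0.000603, 5.31e-05 and 4.27e-05). Another Id2 probe set, 1422537_a_at, was called between ages only at DN3 (-1.07, adjusted p = 0.00623). That call was lost without adult DN3 replicates 2 and 3. Cdkn1a, the cell cycle inhibitor p21, gave -2.62 ± 0.35 at ETP and 2.13 ± 0.35 at DN3, adult minus fetal, with 1424638_at (adjusted p = 0.000403 and 0.00308). Without adult DN3 replicates 2 and 3 the DN3 differences were 4.59 for Id3, -4.68 for Itgae, -2.92 for Id2 1435176_a_at and 2.33 for Cdkn1a 1424638_at, all still called (adjusted p = 2.16e-06, 0.000197, 0.000343 and 0.0199). Tgfbi and Gadd45b were higher in adult than in fetal ETP by 3.69 ± 0.46 with 1456250_x_at and 2.46 ± 0.15 with 1449773_s_at (adjusted p = 0.000205 and 4.03e-07).

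**Figure D4:**
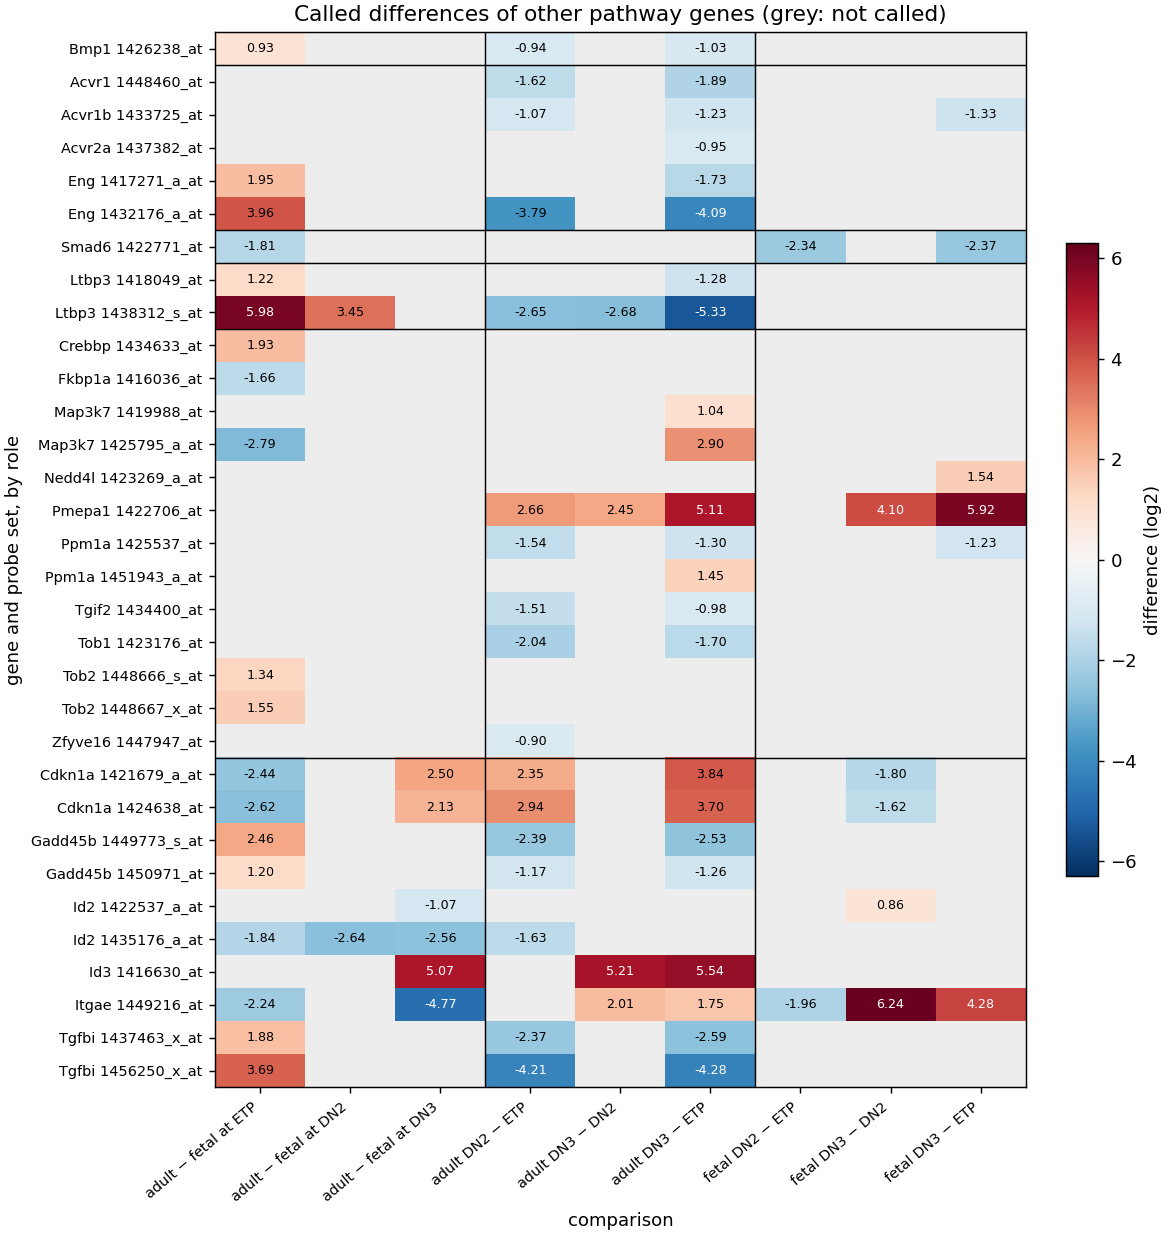
Called differences (log2, colour and printed value) of the other pathway genes, with probe sets grouped by role in rows and the 9 age and stage comparisons in columns; grey cells were not called. The columns with most calls are adult against fetal ETP and adult DN2 and DN3 against adult ETP (12.3%, 11% and 14.9%), which also hold most calls among all probe sets (8.49%, 6.07% and 10.8%); Pmepa1 was higher in DN3 than in ETP at both ages.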

How the data were processed

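Total RNA from sorted cells was amplified in 2 cycles and hybridised to Affymetrix mouse genome expression arrays. The authors normalised the arrays with GCRMA in GeneSpring GX (version not given in the sources used here) and deposited log2 values, which on inspection are centred on the median of each probe set over 18 arrays. They hold no absolute level, so that a filter on intensity could not be applied; the number of arrays limits the precision. Probe sets were named from the platform annotation.

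One limma fit (version 3.58.1, R 4.3.3) with a mean per group was made over all 18 arrays and 22626 probe sets, with Benjamini-Hochberg adjustment over all of them. Calls needed an adjusted p under 0.05 and 1.8-fold. The fit was run on simulated data with independent noise, with differences planted only in adult ETP and in probe sets of small spread. That run does not cover arrays that deviate together or probe sets of wide spread, such as that of Tgfb1. Every member probe set is named, other pathway genes are named where called in 1 of the 9 comparisons, and the 3 most correlated genes are given. Members, lists and tests were chosen with earlier results of these data known. Alternatives were a replicate block, array centring, array weights, smaller fits, other fold limits, probe sets with 1 gene, gene means, an unadjusted analysis of variance and leaving out each array; leaving out both adult DN3 replicates 2 and 3 was added after seeing the data. Same-numbered arrays deviated together, over 0.1 in each of the 3 numbers, in 7 of 15 pairs of groups, including all fetal pairs (r = 0.312 to 0.597), from the data and not from the labels.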

Additional observations from a re-analysis of the deposited data

Results flagged for a closer look

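The age difference of Bmpr1a (1425492_at), the type I BMP receptor, was not the same at ETP and at DN3. The difference, adult minus fetal, was -4.10 at DN3 and -1.64 at ETP, and the interaction term of the limma fit was -2.47 ± 0.50 (SE; adjusted p = 0.0179). Adult arrays lay between -2.03 and -0.89 at DN3 and between -1.22 and -0.93 at ETP, whereas fetal arrays lay between 2.50 and 2.77 at DN3 and between 0.17 and 0.90 at ETP. Without adult DN3 replicates 2 and 3 the change was -2.47 (adjusted p = 0.0321), and without fetal DN3 replicate 1 or fetal ETP replicate 1 the adjusted p was 0.0501 or 0.0525.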

How the results depend on the processing

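No called difference changed sign under the alternatives run. With limma on the compared groups alone, the DN2 age calls of Bmpr1a, Smad1, Bmp2k and Smad3 were all lost. The count of called probe sets was then 2 at ETP and 0 at DN2 between ages, 1 from adult ETP to DN2, 0 from adult DN2 to DN3 and 0 from fetal DN2 to DN3. With probe sets averaged per gene it was 2 and 1 between ages at ETP and DN2, 1, 0 and 1 for adult DN2 minus ETP, DN3 minus DN2 and DN3 minus ETP, 0 and 1 for fetal DN3 minus DN2 and DN3 minus ETP, 0 for the change from ETP to DN3 and 5 over the 6 groups. With no fold limit it was 5 between ages at DN3, and 3 and 5 for fetal DN3 minus DN2 and DN3 minus ETP. For the changes from DN2 to DN3 and ETP to DN3 it was 1 and 2. Tgfbr1 1420895_at and Tgfbr2 1426397_at were then also called between ages at ETP, and Bmpr1a 1425491_at and 1425494_s_at over the 6 groups. With a 2-fold limit the count was 0 for fetal DN3 minus DN2. That limit also removed Smad3 1450472_s_at between ages at DN2 and over the 6 groups, and Tgfbr1 1420895_at for fetal DN3 minus ETP. With array weights the count was 1 and 0 for adult DN2 minus ETP and DN3 minus DN2. It was 1, 4 and 6 for fetal DN2 minus ETP, DN3 minus DN2 and DN3 minus ETP. For the changes from DN2 to DN3 and ETP to DN3 it was 1 and 2. The cause was not tested. Without adult DN3 replicates 2 and 3, only adult DN3 replicate 1 was left, so that calls in that fit are not counted here.

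Leaving out 1 array gave 4 to 6, 2 to 4 and 2 to 4 calls between ages at ETP, DN2 and DN3, 2 to 3, 0 to 1 and 4 to 4 for adult DN2 minus ETP, DN3 minus DN2 and DN3 minus ETP, 0 to 0, 0 to 1 and 2 to 2 for the fetal steps, 0 to 0, 0 to 1 and 0 to 2 for the changes from ETP to DN2, DN2 to DN3 and ETP to DN3, and 7 to 9 over the 6 groups. With the replicate block, which shared numbers alone do not justify for every group, calls numbered 4, 4 and 3 between ages, 2, 1 and 5 for the adult steps, 0, 1 and 2 for the fetal steps and 7 over the 6 groups; Smad3 was then lost over the 6 groups (adjusted p = 0.0508), and no call changed beyond those already named.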
